A study of Homo sapiens with 12 samples.

Results

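The comparison described here set every array of U2OS cells treated with the strigolactone (SL) analogue ST362 against every vehicle array, whatever the labelled time. It held 8 of the 12 arrays of the series: 4 with ST362 and 4 with vehicle, in each case 2 labelled 6 h and 2 labelled 24 h. The arrays were assigned by their treatment label alone, and no measured value decided which of them belong. Earlier results of these data were known, however, when the members, lists and tests were chosen. The analogues were added at 5 ppm in medium, the control cells received vehicle only, and the 4 arrays of a second analogue, MEB55, also at 5 ppm, entered the fit for the estimate of the spread. U2OS is an established human osteosarcoma cell line, so every array comes from 1 line grown in culture, and all the groups share its genotype. Each RNA sample was hybridised to its own Illumina HumanHT-12 BeadChip array, and values below are log2 signals after background correction and quantile normalization.

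Strigolactones act in plants as signals of branching and of symbiosis with soil fungi. Cells that leave the division cycle turn down a large set of genes for the spindle, the centromere and cytokinesis. In cycling cells these genes are switched on together in G2 by the MuvB complex with B-MYB and FOXM1. Autophagy encloses cytoplasm in a membrane decorated with small ubiquitin-like proteins of the ATG8 family and delivers it to the lysosome. FOXO transcription factors, active when growth factor signalling is low, raise genes of both autophagy and cell cycle exit.

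Each array gave signals for 47313 probes, with a median signal of 80.7 to 90.4 and 42.7% to 47.4% of the probes detected. Testing was restricted to the 22186 probes detected in every replicate of 1 or more groups. For the 12290 genes with a name among them, the probe with the highest mean signal stands for the gene. The mesenchymal and bone genes VIM, CDH2, COL1A1, SPARC and ALPL were detected on all 8 arrays, and the osteoblast regulator RUNX2 on 6 of 8. COL1A2 was detected on none, while the epithelial genes EPCAM, KRT8 and KRT18 were detected on all 8. Of the other epithelial genes, CLDN4 was detected on 4 of 8 arrays and CDH1 and KRT19 on 2 each. The leukocyte gene CD14 was detected on 4 of 8, and PTPRC and CD3E on none. The prostate genes KLK3 and TMPRSS2 were detected on none. The ST362 arrays went against their time labels: each resembled an array of the other label most closely. ST362 6 h replicate 1 correlated with 24 h replicate 2 at r = 0.986 across the tested probes, 6 h replicate 2 with 24 h replicate 1 at r = 0.989, and arrays of the same label at r = 0.977. The same held for the 4 MEB55 arrays, at r = 0.987 and 0.989. The model of the comparison has treatment as its only term, but the time label helped to decide which probes were tested, since detection was asked of both replicates of a group. With all probes on the array tested, 0 passed.

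With ST362, genes such as CENPA and KIF20A fell and genes such as ZNF114, GABARAPL1 and ABTB1 rose, on all 4 arrays. In the limma fit 94 of 12290 genes (0.765%) passed an adjusted p of 0.05, of which 45 (0.366%) were higher and 49 (0.399%) lower, and 1905 had an unadjusted p under 0.05. In probes this was 128 of 22186 (0.577%), 62 higher and 66 lower. None of the 128 probes had overlapping groups. Among the genes past the test, the median log2 fold change was 1.00 for the higher and -0.85 for the lower, and 22 higher and 14 lower genes changed by at least 2-fold. The p-values rest on the spread within treatments over all 12 arrays, with MEB55 included and both time labels pooled. A gene that is even in the compared groups can thus have a large SE. NDRG1 had an SD of 0.17 with vehicle and 0.03 with ST362, and an SE of 0.24. The spread between replicates may be technical. The study speaks of duplicate sample sets and, for a heatmap, of independent experiments, but the labels tie no replicate to a culture. How many probes passed depended on single arrays. None passed when the second ST362 array at 6 h, the first ST362 array at 24 h, or the second vehicle array of either time was left out, and 23 and 8 passed without vehicle 6 h replicate 1 and vehicle 24 h replicate 1. Without ST362 24 h replicate 2, 81 passed, and 230 without MEB55 24 h replicate 2. Across these and the other alternatives none of the 40 genes with the largest called changes turned its sign. Because these 40 were chosen with groups that do not overlap, leaving out arrays could not turn a sign. Without any 1 array their log2 fold changes stayed at 0.80 to 1.18 times the value given here.

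**Figure D1:**
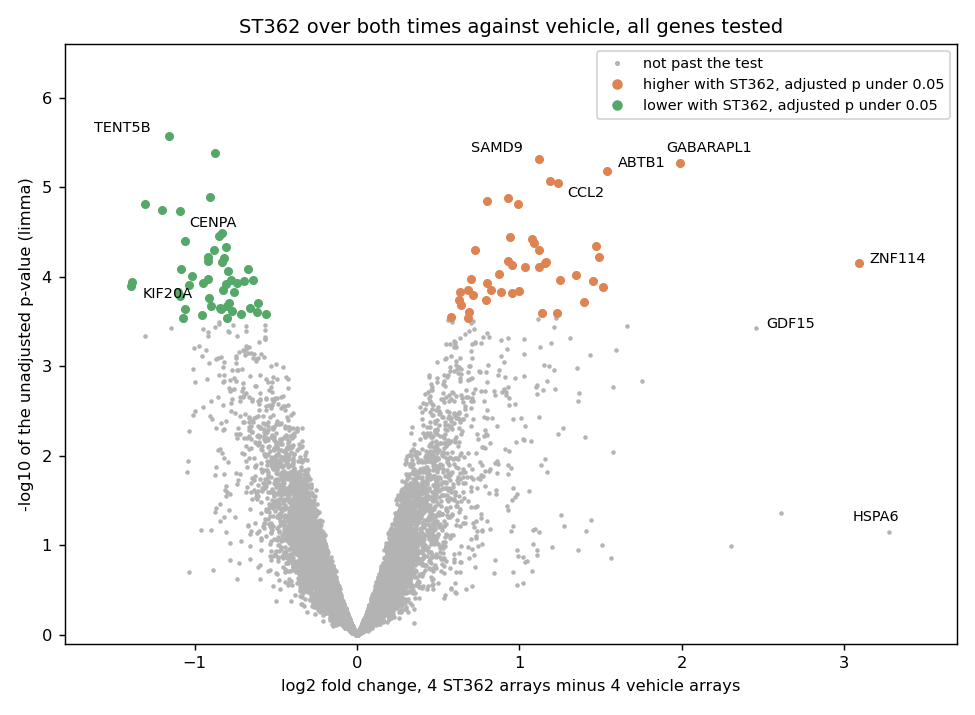
Each point is 1 of the 12290 genes tested; the x axis is the log2 fold change of the 4 ST362 arrays over the 4 vehicle arrays and the y axis the -log10 of the unadjusted limma p-value. Orange and green points are the 45 higher and 49 lower genes with an adjusted p under 0.05; HSPA6, far to the right at 3.28, is not among them, with ST362 arrays from 4.75 to 11.06.

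Without any test, a gene can be asked to lie outside the vehicle range on every ST362 array. This held for 593 genes on the higher side (4.83%) and 613 on the lower (4.99%), and for 501 and 813 when arrays were scaled to their 75th percentile instead. Requiring in addition a change of at least 2-fold from the vehicle mean on each ST362 array left 17 higher genes (0.138%) and 2 lower ones (0.0163%). The 17 were ABTB1, ATOSA, CCL2, CCNG2, CREBRF, CRYAB, FBXO32, GABARAPL1, GDF15, NDRG1, SAMD9, TRIML2, TSC22D1, TSC22D3, ZNF114, ZNF433 and ZNF844. The 2 lower genes were LFNG and TRIM6. Several of the 17 did not pass the test, among them GDF15, CCNG2, CREBRF and TSC22D3.

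GABARAPL1, a GABARAP-type member of the ATG8 family on chromosome 12 (chr12:10212877-10223128, GRCh38.p14), had the second largest rise among the genes past the test. Its log2 signals were 6.17, 6.86, 7.29 and 6.95 on the vehicle arrays (6 h replicates 1 and 2, then 24 h replicates 1 and 2). In the same order they were 8.46, 8.69, 9.11 and 8.99 with ST362. The lowest ST362 array lay above the highest vehicle array by more than the whole vehicle range, and the log2 fold change was 1.99 (SE 0.28, 3.98-fold, adjusted p = 0.0163, 4 arrays against 4). ABTB1, a BTB-domain protein with ankyrin repeats on chromosome 3 (chr3:127672952-127680926), read 5.75, 5.96, 5.61 and 5.88 with vehicle. With ST362 it read 7.10, 7.77, 7.62 and 6.88, again without overlap. The rise was 1.54 on the log2 scale, with an SE of 0.22 and an adjusted p of 0.0163.

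CENPA, the histone H3 variant that marks the centromere, on chromosome 2 (chr2:26786056-26794589), read 9.66, 9.73, 9.46 and 9.54 with vehicle. The ST362 arrays read 8.78, 8.11, 8.29 and 8.85, so that the vehicle arrays spanned a narrow band and all the ST362 arrays lay below it. The log2 fold change was -1.09 (SE 0.17, adjusted p = 0.0225), and a second CENPA probe gave -0.92 (adjusted p = 0.0368). KIF20A, a kinesin needed for cytokinesis, on chromosome 5 (chr5:138179112-138187723), read 8.72, 9.12, 8.52 and 9.16 with vehicle. Its ST362 values were 8.12, 7.05, 6.80 and 8.00, the lowest on 6 h replicate 2 and 24 h replicate 1 as for CENPA. Its log2 fold change was -1.39 (SE 0.26, adjusted p = 0.0368).

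**Figure D2:**
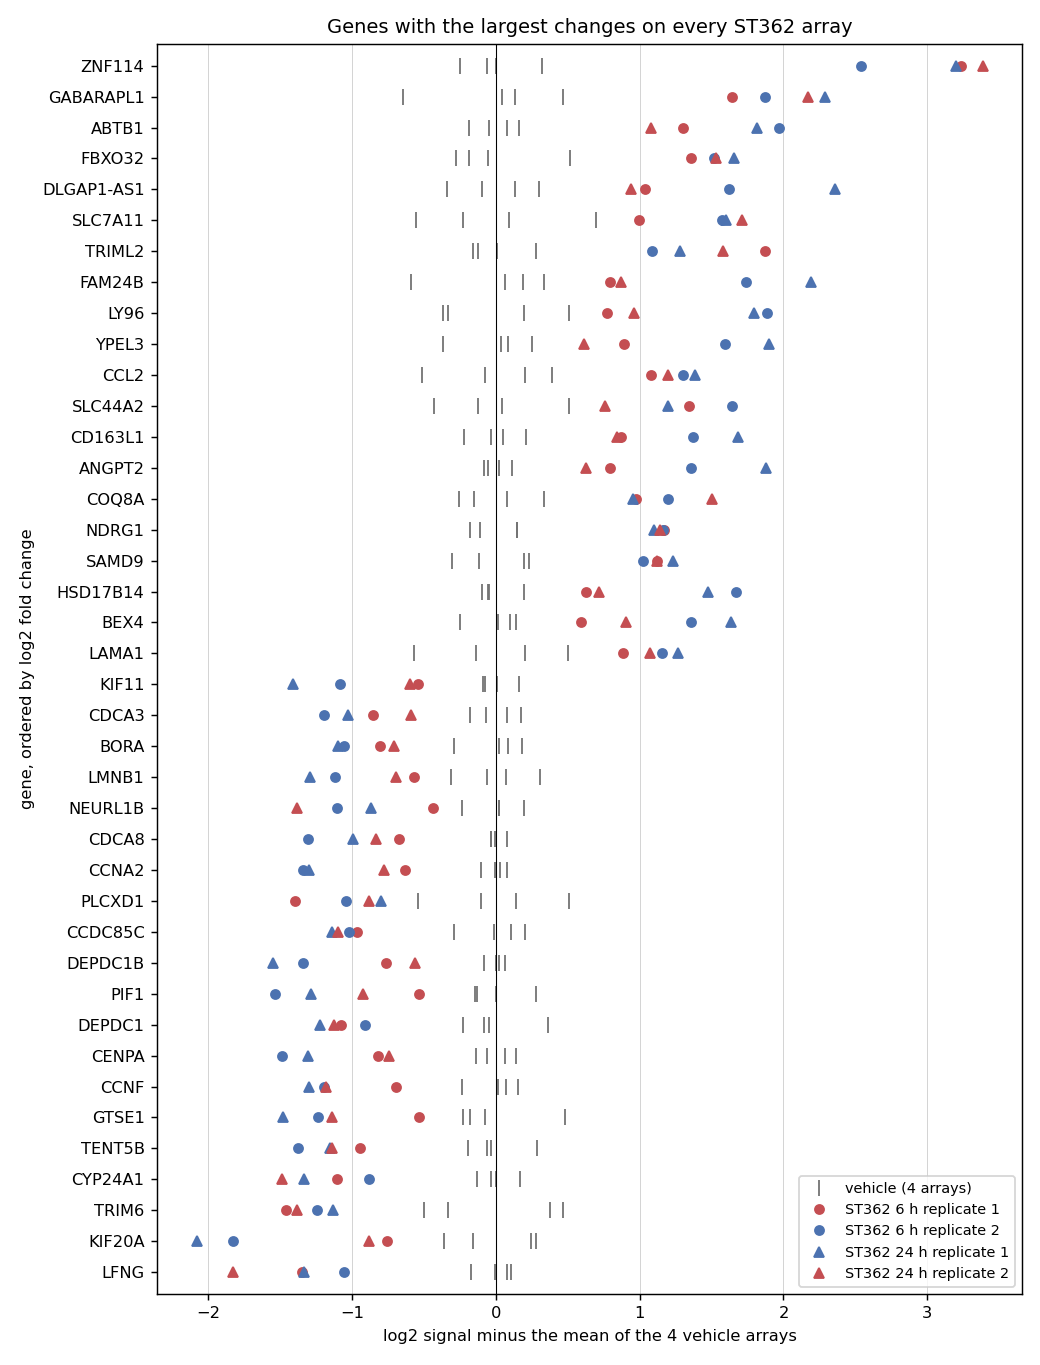
Log2 signal on each ST362 array (circles 6 h, triangles 24 h) and each vehicle array (grey bars) relative to the vehicle mean, for the 20 higher and 20 lower named genes with the largest called changes; colour joins the arrays that resembled each other most. By the rule of choice no gene's ST362 points reach its vehicle bars. In KIF20A, CENPA and YPEL3 the blue arrays lie farther out than the red ones.

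Some mitotic genes fell with ST362, and most members of the mitotic lists did not pass the test. Of the 12 mitotic kinesins tested, which move chromosomes and spindle microtubules, 4 passed the test on the lower side and none on the higher (0.399% and 0.366% of all genes), and 9 lay below the vehicle range on every array (4.99% of all genes). All 12 had a negative log2 fold change, with a median of -0.82 against -0.01 over all genes. Beside KIF20A these were KIF11, the motor that pushes spindle poles apart (-0.91, SE 0.18, adjusted p = 0.0408, with -0.78 and 0.0611 on a second probe), KIF20B (-0.84, adjusted p = 0.0457) and the chromokinesin KIF4A (-0.80, adjusted p = 0.0499). The median of the list was -0.57, -1.09, -1.21 and -0.58 on the 4 ST362 arrays and between -0.12 and 0.12 on the vehicle arrays. It was deepest on 6 h replicate 2 and 24 h replicate 1. In bulk RNA fewer dividing cells and less of these RNAs per cell cannot be told apart.

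Of 24 mitotic kinases and spindle checkpoint genes, 17 lay below the vehicle range on every array (4.99% of all genes). Their median was -0.67. The test was passed by 4, all lower (0.399% of all genes). They were TPX2, the activator of Aurora A on the spindle (-0.88, SE 0.15, adjusted p = 0.0341), CDCA8, a subunit of the chromosomal passenger complex (-0.95, adjusted p = 0.0484), and the checkpoint kinases BUB1 (-0.90, adjusted p = 0.0450) and BUB1B (-0.79, adjusted p = 0.0434). Of 35 centromere and kinetochore genes only 3 passed, all lower, and 10 lay below the vehicle range, with a median of -0.37. Beside CENPA these were NDC80, the subunit that grips microtubules (-0.81, SE 0.14, adjusted p = 0.0341), and KNL1, the scaffold for checkpoint proteins (-0.76, adjusted p = 0.0378), whose second probe was at -0.14 (adjusted p = 0.769). CENPE, a kinesin of the kinetochore, was at -0.93 with an adjusted p of 0.0671.

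Among 20 genes of the G2 cyclin and CDC25 group, 4 passed the test, all lower (0.399% of all genes), and 19 had a negative log2 fold change. Of the 20, 12 lay below the vehicle range on every array (4.99% of all genes), and the list median was -0.55. CCNF, the cyclin that serves as substrate receptor of an SCF ubiquitin ligase, read 9.83, 9.97, 9.58 and 9.89 with vehicle and 9.12, 8.63, 8.52 and 8.64 with ST362 (log2 fold change -1.09, SE 0.22, adjusted p = 0.0400). CCNA2, cyclin A2, fell by 1.01 on the log2 scale (adjusted p = 0.0368) and CDCA3, a trigger of mitotic entry, by 0.92 (adjusted p = 0.0355). CDC25A, a phosphatase that activates cyclin-dependent kinases, changed less but more evenly: its vehicle arrays lay between 8.03 and 8.15 and its ST362 arrays between 7.34 and 7.58. The log2 fold change was -0.67 (SE 0.12, adjusted p = 0.0359), and a second, dimmer probe was at -0.24 with overlapping groups (adjusted p = 0.639). CCNB1, cyclin B1, lay just outside the threshold at -1.07 (adjusted p = 0.0511), and CDK1, its partner kinase, was at -0.75 (adjusted p = 0.129).

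Together these 4 lists hold 15 of the 49 lower genes (30.6%) and 90 of all the genes tested (0.732%). The lower genes named next are on none of these lists and are not counted with them; MKI67, TACC3, CEP55 and RACGAP1 among them were picked after their values were seen. GTSE1, a microtubule-binding protein of G2, fell by 1.10 on the log2 scale (SE 0.21, adjusted p = 0.0378). BORA, which helps Aurora A to activate PLK1, fell by 0.92 (adjusted p = 0.0355) and LMNB1, lamin B1 of the nuclear envelope, by 0.92 (adjusted p = 0.0368). MKI67, the proliferation antigen, was at -0.80 (adjusted p = 0.0450), TACC3 at -0.91 (adjusted p = 0.0213), CEP55 at -0.82 (adjusted p = 0.0355) and RACGAP1 at -0.79 (adjusted p = 0.0365), the last 2 being cytokinesis proteins. DEPDC1 and DEPDC1B were at -1.08 (adjusted p = 0.0359) and -1.06 (adjusted p = 0.0341), and a second DEPDC1B probe was at -0.64 (adjusted p = 0.185). RACGAP1 also had a second probe, at -0.52 (adjusted p = 0.215). The helicase PIF1 was at -1.07 (adjusted p = 0.0499), while its other tested probe, near background, was at 0.10.

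Promoters of lower genes, and of 3 higher genes beside them, are shown because many of the lower genes hold the 2 elements by which G2 and mitotic genes are known to be switched together: the CHR (TTTGAA) and the CCAAT box. Windows from 250 bases before to 50 after the start were taken from RefSeq (GRCh38.p14) and searched on both strands; capitals mark any match to CHR, CCAAT, the FOXO motif GTAAACA, the ATF4 motif TGATGNAA or the AP-1 motif TGACTCA. No 2 matches overlap in the windows shown. GTSE1 and CCNF were picked as the lower genes with the largest changes whose windows hold both elements. YPEL3 and FAM24B were picked as higher genes with a FOXO and an ATF4 motif. Those matches were thus fixed by the choice of windows.
CENPA, chr2:26785806-26786105, + strand: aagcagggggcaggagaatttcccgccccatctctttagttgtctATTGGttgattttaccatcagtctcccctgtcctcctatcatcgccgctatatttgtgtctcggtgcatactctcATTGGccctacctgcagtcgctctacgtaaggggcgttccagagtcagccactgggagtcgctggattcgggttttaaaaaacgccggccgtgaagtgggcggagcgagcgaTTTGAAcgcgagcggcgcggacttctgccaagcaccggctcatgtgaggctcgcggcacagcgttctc
KIF20A, chr5:138178862-138179161, + strand: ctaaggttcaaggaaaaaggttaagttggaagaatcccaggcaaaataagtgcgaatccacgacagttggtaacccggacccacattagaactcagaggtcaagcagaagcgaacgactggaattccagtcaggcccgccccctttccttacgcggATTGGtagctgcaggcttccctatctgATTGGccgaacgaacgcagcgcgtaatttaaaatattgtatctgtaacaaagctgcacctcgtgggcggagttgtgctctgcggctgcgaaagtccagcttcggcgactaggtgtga
GTSE1, chr22:46296620-46296919, + strand: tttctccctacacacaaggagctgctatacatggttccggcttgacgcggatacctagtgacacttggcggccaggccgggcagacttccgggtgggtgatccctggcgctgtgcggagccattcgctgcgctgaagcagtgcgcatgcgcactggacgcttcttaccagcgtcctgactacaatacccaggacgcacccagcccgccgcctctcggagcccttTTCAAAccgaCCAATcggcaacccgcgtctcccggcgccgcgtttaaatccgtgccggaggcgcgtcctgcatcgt
CCNF, chr16:2429197-2429496, + strand: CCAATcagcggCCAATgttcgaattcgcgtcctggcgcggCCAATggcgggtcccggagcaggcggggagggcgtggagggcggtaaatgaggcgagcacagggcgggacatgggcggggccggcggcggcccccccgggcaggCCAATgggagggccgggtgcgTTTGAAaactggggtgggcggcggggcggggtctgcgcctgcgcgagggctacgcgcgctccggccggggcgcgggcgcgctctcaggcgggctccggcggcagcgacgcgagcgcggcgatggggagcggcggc
YPEL3, chr16:30096164-30096463, - strand: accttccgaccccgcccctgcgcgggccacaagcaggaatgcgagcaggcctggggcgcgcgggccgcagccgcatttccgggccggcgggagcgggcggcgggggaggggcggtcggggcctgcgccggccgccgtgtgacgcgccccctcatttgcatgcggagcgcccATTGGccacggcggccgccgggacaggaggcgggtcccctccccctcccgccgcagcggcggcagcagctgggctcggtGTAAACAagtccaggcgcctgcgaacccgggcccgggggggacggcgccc
FAM24B, chr10:122879592-122879891, - strand: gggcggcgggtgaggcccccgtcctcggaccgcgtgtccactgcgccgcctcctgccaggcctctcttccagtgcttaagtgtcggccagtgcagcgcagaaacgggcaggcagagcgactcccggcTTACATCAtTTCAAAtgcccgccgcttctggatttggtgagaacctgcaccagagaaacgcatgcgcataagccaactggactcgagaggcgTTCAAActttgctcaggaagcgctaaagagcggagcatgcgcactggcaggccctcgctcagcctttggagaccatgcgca
GABARAPL1, chr12:10212627-10212926, + strand: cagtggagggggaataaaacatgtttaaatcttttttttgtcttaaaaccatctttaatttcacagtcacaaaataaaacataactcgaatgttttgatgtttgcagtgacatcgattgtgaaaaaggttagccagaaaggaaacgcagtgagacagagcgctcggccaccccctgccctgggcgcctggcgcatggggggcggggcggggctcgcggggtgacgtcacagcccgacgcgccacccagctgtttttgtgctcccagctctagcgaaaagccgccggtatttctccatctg
CENPA, GTSE1 and CCNF show a CHR and at least 1 CCAAT box, KIF20A shows 2 CCAAT boxes and no CHR, YPEL3 a FOXO motif at the start and a CCAAT box, FAM24B, a higher gene, 2 CHR matches and an ATF4 motif, and GABARAPL1 none of the 5. ABTB1 had no window in the table.

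A window was found for 43 of the 49 lower genes, 30 of the 45 higher genes and 9796 of the genes tested. The CHR was present in 22 of the 43 lower genes (51.2%), in 2 of the 30 higher genes (6.67%) and in 10.2% of all tested genes with a window. Of its 26 occurrences in the lower genes, 22 lay within 100 bases of the start. The CCAAT box was present in 69.8% of the lower genes, 36.7% of the higher and 37.1% of all tested. Both were present in 18 lower genes (41.9%) and in 4.41% of all tested. The FOXO motif was in 3 of 30 higher genes (10.0%), COQ8A, the splicing factor gene SLU7 and YPEL3, in none of the 43 lower genes, and in 2.29% of all tested. The ATF4 motif was likewise in 3 of 30 higher genes (10.0%) against 1.90% of all tested, and the AP-1 motif in 4 of 30 (13.3%) against 3.18%. Over the 35116 windows of the whole table the CHR was in 15.2%, the CCAAT box in 34.6%, and the FOXO, ATF4 and AP-1 motifs in 3.42%, 3.62% and 4.95%. Such matches describe the letters in these windows and are not measured binding sites.

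DNA replication genes were lower to a smaller degree, and no member of that list passed the test. Of 41 tested, 7 lay below the vehicle range on every array (4.99% of all genes). Negative log2 fold changes were found in 39, and the list median was -0.33. MCM10, which starts replication forks, had vehicle arrays within 0.04 of their mean and ST362 arrays from -0.68 to -0.43 (log2 fold change -0.57, adjusted p = 0.0611). UHRF1, which keeps DNA methylation through replication, was at -0.59 (adjusted p = 0.0708) and RRM2, the small subunit of ribonucleotide reductase, at -0.91 (adjusted p = 0.134). Of 20 homologous recombination and Fanconi genes none passed and 4 lay below the vehicle range, with a median of -0.35; the nearest to the threshold was FANCC at -0.62 (adjusted p = 0.0773). Of 20 G1 cyclin and E2F genes none passed, 3 lay below the vehicle range, and the median was -0.21. E2F2 was at -1.14 with vehicle arrays that spread from -0.55 to 0.59 (adjusted p = 0.0555). Ribosome biogenesis genes were also lower without a call: 30 of 31 had a negative log2 fold change, 8 lay below the vehicle range, and the list median was between -0.35 and -0.25 on each ST362 array. The 42 cytosolic ribosomal protein genes, by comparison, had a median of -0.02 and none outside the vehicle range.

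**Figure D3:**
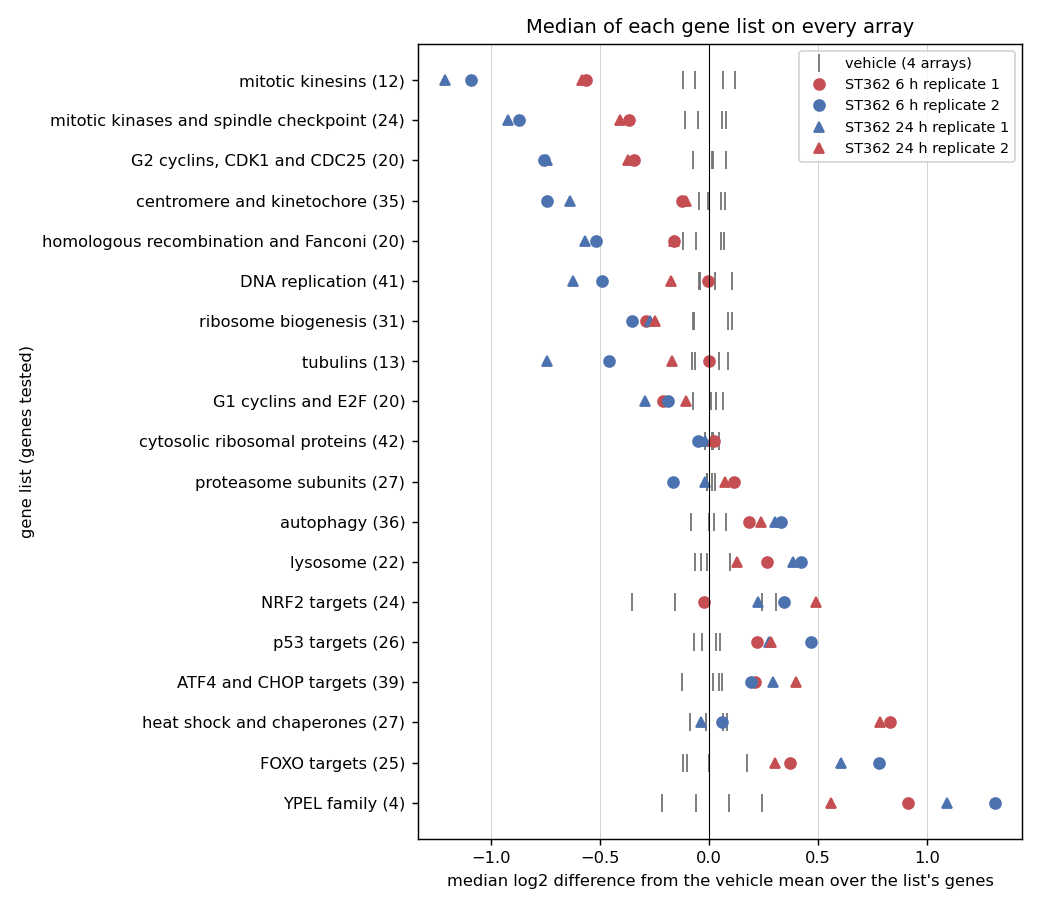
Median over the tested genes of each list (number in brackets) of the log2 difference from the vehicle mean, on each of the 4 ST362 arrays and the 4 vehicle arrays (grey bars). Mitotic lists lie below the vehicle bars on all 4 ST362 arrays and farther on 6 h replicate 2 and 24 h replicate 1 (blue), whereas heat shock genes are high only on the other pair (red).

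GABARAPL1 was the only one of 36 autophagy genes past the test. Of the 36, 11 lay above the vehicle range on every array (4.83% of all genes) and none below it, 9 had a negative log2 fold change, and the median was 0.22. MAP1LC3B, the LC3 protein of the autophagosome, was at 0.72, 0.62, 0.68 and 0.64 above the vehicle mean on the 4 ST362 arrays, with vehicle arrays from -0.08 to 0.06 (log2 fold change 0.67, SE 0.15, adjusted p = 0.0593). SQSTM1, the cargo receptor p62, was at 0.73 (adjusted p = 0.0639) and WIPI1, which binds the growing membrane, at 0.89 (adjusted p = 0.0619). Each of the 3 was higher on 4 of 4 ST362 arrays and missed the threshold. CALCOCO1, a receptor for autophagy of the endoplasmic reticulum, and CHMP1B, an ESCRT-III subunit, were past the test at 0.79 (adjusted p = 0.0422) and 1.08 (adjusted p = 0.0341). CALCOCO1 averaged 4.50 on the vehicle arrays, near background. Of 22 lysosomal genes none passed, 6 lay above the vehicle range, and the median was 0.28. The proton pump subunit ATP6V1H was at 0.69 (adjusted p = 0.0578) and the protease TPP1 at 0.93 (adjusted p = 0.0671).

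FOXO targets had a median of 0.56, with 3 of 25 past the test, all higher (0.366% of all genes). Of the 25, 11 lay above the vehicle range on every array (4.83% of all genes). The list was drawn up with earlier results of these arrays known and holds ABTB1 and YPEL3 for that reason, so that its count is not independent of them. FBXO32, atrogin-1, the F-box protein of muscle wasting, read 5.25, 5.95, 5.16 and 5.38 with vehicle. It read 6.79, 6.95, 7.09 and 6.97 with ST362, a tight group above all 4 vehicle arrays (log2 fold change 1.52, SE 0.29, adjusted p = 0.0376); a second probe gave 0.69 (adjusted p = 0.0846). YPEL3, a small Yippee protein linked to growth arrest, read 4.96, 5.58, 5.37 and 5.42 with vehicle and 6.22, 6.93, 7.23 and 5.94 with ST362, an uneven rise of 1.25 (SE 0.24, adjusted p = 0.0368). The factor FOXO4 itself was at 1.12 (adjusted p = 0.0507), CCNG2, a cyclin of arrested cells, at 1.60 (adjusted p = 0.0677) and CREBRF, a regulator of the stress factor CREB3, at 1.75 (adjusted p = 0.0916), all 3 higher on 4 of 4 ST362 arrays. Other probes of CCNG2 were at 0.81 and 0.38. Of the other 3 Yippee genes tested, YPEL1 was at -0.08 with overlapping groups, YPEL2 was at 1.16 (adjusted p = 0.0807) and YPEL5 at 0.91 (adjusted p = 0.189).

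Stress pathways contributed few calls. Of 39 ATF4 and CHOP targets only SLC7A11 passed, with 10 above the vehicle range (4.83% of all genes) and a median of 0.33. SLC7A11, the cystine importer that feeds glutathione synthesis, was also the only one of 24 NRF2 targets past the test (log2 fold change 1.47, SE 0.25, adjusted p = 0.0341). Its vehicle arrays spread from -0.56 to 0.69 around their mean and its ST362 arrays from 1.00 to 1.71. GDF15, a secreted stress cytokine, had a larger change but missed the threshold: it read 6.13, 6.82, 6.46 and 6.59 with vehicle and 8.98, 8.53, 8.95 and 9.38 with ST362 (log2 fold change 2.46, SE 0.53, adjusted p = 0.0555). PPP1R15A, GADD34, which restores translation after stress, was at 1.19 (adjusted p = 0.0817). Of 26 p53 targets none passed, 7 lay above the vehicle range, and the median was 0.30. The death receptor gene TNFRSF10B was at 0.56 (adjusted p = 0.0510). Other probes of TNFRSF10B were at 0.39 (adjusted p = 0.153) and, with overlapping groups, at 0.43 (adjusted p = 0.281). U2OS arrays showed CDKN1A, the p53 target p21, at 0.60 with overlapping groups (adjusted p = 0.314).

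Heat shock genes separated the ST362 arrays rather than ST362 from vehicle. HSPA6, a strictly inducible HSP70, read 4.73, 4.51, 4.55 and 4.41 with vehicle. With ST362 it read 10.51 and 11.06 on 6 h replicate 1 and 24 h replicate 2, and 4.99 and 4.75 on the other 2 arrays. Its log2 fold change of 3.28 had an SE of 1.68 (adjusted p = 0.431). The median of the 27 heat shock genes was 0.83 and 0.78 on the first 2 arrays and 0.06 and -0.04 on the others. None of the 27 passed the test, and 3 lay above the vehicle range on every array (4.83% of all genes). One of these was CRYAB, the small heat shock protein alpha-B crystallin, at 1.07, 1.85, 1.11 and 1.39 above the vehicle mean (log2 fold change 1.36, adjusted p = 0.0835). HMOX1, heme oxygenase, was at 2.61 with an SE of 1.18 (adjusted p = 0.361).

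The largest change past the test was that of ZNF114, a zinc finger protein gene on chromosome 19. It read 5.78, 5.59, 5.84 and 6.16 with vehicle and 9.08, 8.38, 9.04 and 9.23 with ST362, 8.52-fold higher on average (log2 fold change 3.09, SE 0.56, adjusted p = 0.0355); its second probe gave 1.96 (adjusted p = 0.0611). SAMD9, an antiviral restriction factor, and NDRG1, a gene induced by hypoxia and differentiation, rose by nearly the same amount on each array. SAMD9 lay 1.02 to 1.23 above the vehicle mean (log2 fold change 1.12, SE 0.16, adjusted p = 0.0163) and NDRG1 1.10 to 1.17 above it (1.14, SE 0.24, adjusted p = 0.0481). MT1G, a metallothionein that binds zinc and copper, rose by 0.93 (adjusted p = 0.0213), again within a range of 0.21 across arrays.

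Several genes of secreted and surface proteins were also higher. CCL2, the chemokine that attracts monocytes, read 7.31, 8.21, 7.75 and 8.03 with vehicle and 8.90, 9.13, 9.21 and 9.02 with ST362 (log2 fold change 1.24, SE 0.18, adjusted p = 0.0180). It was the only one of 16 NF-kB feedback and cytokine genes past the test, a list with a median of -0.02. LY96, the MD-2 subunit of the TLR4 receptor, rose by 1.35 (SE 0.25, adjusted p = 0.0368) and LAMA1, a laminin chain of basement membranes, by 1.09 (adjusted p = 0.0341), with 0.85 on its second probe (adjusted p = 0.0397). ANGPT2, the angiopoietin that antagonises TIE2 signalling in vessels, was not detected on any vehicle array and was detected on all 4 ST362 arrays. It therefore entered the test only through groups where it is high. Measured against the lowest detected signal of each vehicle array it was at least 1.96-fold higher, while the adjusted p of 0.0355 belongs to the measured log2 difference of 1.16. Its second probe was at 0.42 (adjusted p = 0.122). The scavenger receptor gene CD163L1 was at 1.19 (adjusted p = 0.0180) and SLC44A2, a choline transporter-like protein, at 1.23 (adjusted p = 0.0481). COQ8A, needed for coenzyme Q synthesis, was at 1.16 (adjusted p = 0.0355) and HSD17B14, a hydroxysteroid dehydrogenase, at 1.12 (adjusted p = 0.0355). TRIML2 was at 1.45 (adjusted p = 0.0368), BEX4 at 1.12 (adjusted p = 0.0341) and the antisense RNA gene DLGAP1-AS1 at 1.49 (adjusted p = 0.0355). FAM24B was at 1.40 on its brightest probe (adjusted p = 0.0432) and at 0.05 on the other.

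Some lower genes had no known role in mitosis. LFNG, the fringe enzyme that glycosylates Notch, read 8.56, 8.67, 8.64 and 8.39 with vehicle and 7.22, 7.51, 7.23 and 6.73 with ST362 (log2 fold change -1.39, SE 0.27, adjusted p = 0.0374). It was the only one of 13 Notch pathway genes past the test, and the list median was -0.05 against -0.01 over all genes. Of the 13, 2 lay below and 1 above the vehicle range on every array (4.99% and 4.83% of all genes). NEURL1B, a ubiquitin ligase for Notch ligands, which is not on that list, was at -0.95 (adjusted p = 0.0368). TRIM6, a ubiquitin ligase of antiviral signalling, read 7.20, 8.01, 7.04 and 7.91 with vehicle and 6.08, 6.30, 6.41 and 6.16 with ST362 (-1.30, SE 0.20, adjusted p = 0.0213). CYP24A1, the enzyme that inactivates vitamin D hormone, read 6.70, 6.50, 6.40 and 6.54 against 5.43, 5.65, 5.20 and 5.05 (-1.20, SE 0.19, adjusted p = 0.0225). TENT5B, a poly(A) polymerase, had the smallest unadjusted p of the named lower genes and lay 0.94 to 1.38 below the vehicle mean (-1.16, SE 0.15, adjusted p = 0.0163). PLCXD1 was at -1.03 (adjusted p = 0.0369) and CCDC85C at -1.06 (adjusted p = 0.0457), the latter with -0.21 on its second probe. Among regulators of chromatin and transcription, EZH2, the methyltransferase of Polycomb complex PRC2, was at -0.56 (adjusted p = 0.0482), its partner PHF19 at -0.81 (adjusted p = 0.0369) and SOX2 at -0.61 (adjusted p = 0.0435). Their other tested probes did not pass, at -0.41 and -0.48 for EZH2, -0.39 and -0.52 for PHF19 and 0.05 for SOX2. On its called probe SOX2 averaged 5.09 with vehicle and 4.48 with ST362, the latter near background. The replication-dependent histone gene H4C1 was at -0.82 (adjusted p = 0.0378), 1 of 31 such genes past the test, and was detected on only 2 of 4 ST362 arrays.

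The called genes differed in how evenly they changed. Across the 4 ST362 arrays the range of a gene, from its lowest to its highest array, had a median of 0.55 for the higher and 0.59 for the lower genes, against 0.49 over all genes. It was smallest for NDRG1 (0.07), NECAP2, an adaptor of clathrin vesicles (0.11), and CHMP1B (0.15), and largest for FAM24B (1.40) and DLGAP1-AS1 (1.42). In 34 of the 49 lower genes (69.4%) the 2 lowest ST362 arrays were 6 h replicate 2 and 24 h replicate 1, which was so for 24.4% of all genes. In 20 of the 45 higher genes (44.4%) the same 2 arrays were the highest, against 25.7% of all genes. These are the arrays without the heat shock signal, and the part of that difference in the calls was not tested.

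MEB55, given at the same mass per volume but not at the same molarity, was compared with ST362 gene by gene in the same fit. Of 22186 probes 4 differed (0.018%), 3 higher and 1 lower with MEB55, from the genes CCL2, CXCL8 and TAGLN3, and 1749 had an unadjusted p under 0.05. CCL2 read 7.83, 7.49, 7.48 and 8.02 with MEB55, all within the vehicle range and below every ST362 array. It was lower with MEB55 than with ST362 by a log2 difference of -1.36, with a 95% interval from -1.75 to -0.96 and an adjusted p of 0.0234. CXCL8, the neutrophil chemokine, went the other way: its brightest probe averaged 7.05 with vehicle, 7.52 with ST362 and 10.10 with MEB55, a difference of 2.59 (1.87 to 3.30, adjusted p = 0.0188). Its 4 MEB55 arrays lay between 9.63 and 10.69, and its 4 ST362 arrays between 7.15 and 8.17. TAGLN3, an actin-binding protein of neurons, averaged 5.04 with ST362 and 6.22 with MEB55 (difference 1.18, 0.86 to 1.49, adjusted p = 0.0188). No probe differed without any 1 of ST362 6 h replicate 2, ST362 24 h replicates 1 and 2, MEB55 6 h replicate 2 and MEB55 24 h replicate 1, and 2 did without ST362 6 h replicate 1 or vehicle 24 h replicate 1. CXCL8 and TAGLN3 are named because only 3 genes differed, after their values were seen.

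**Figure D4:**
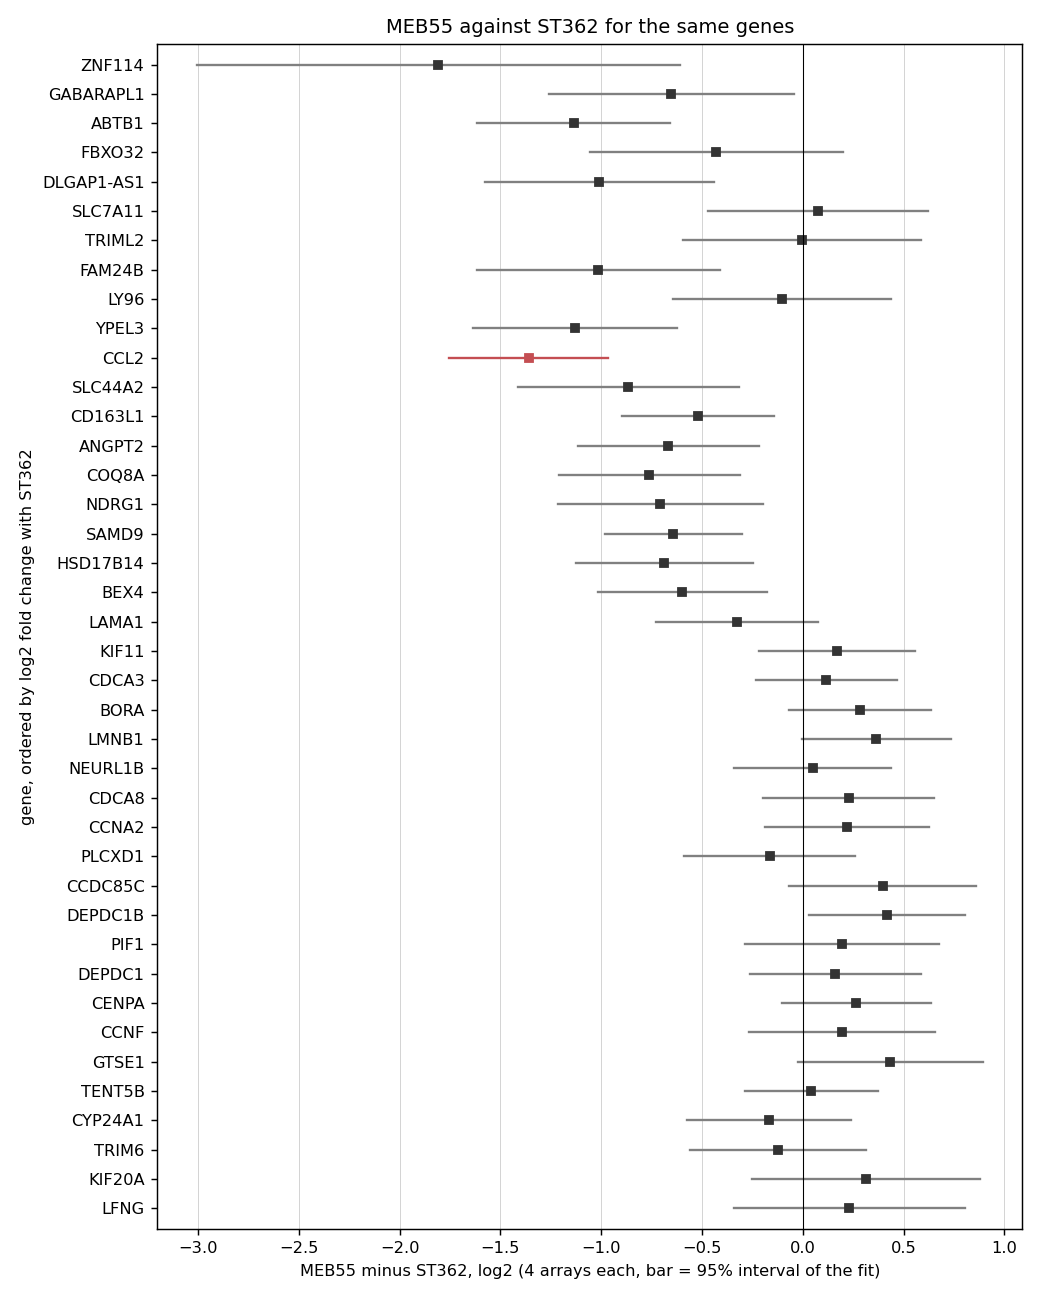
Difference MEB55 minus ST362 on the log2 scale (squares) with the 95% interval of the fit (bars) for the 40 genes with the largest called ST362 changes; negative values mean a lower signal with MEB55. CCL2 (red) is the gene past the adjusted test, and 15 of the 20 higher genes but 1 of the 20 lower genes have an interval that excludes 0.

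For the genes chosen by their size with ST362, the unadjusted interval of the difference excluded 0 in 15 of the 20 higher and 1 of the 20 lower genes, and in 8.58% of all genes. Choosing genes for a large ST362 value tilts this difference, and apart from CCL2 no adjusted p among the 40 was below 0.179. Against vehicle, MEB55 passed the test in 69 of 12290 genes. Of the 94 genes called with ST362, 14 passed with MEB55 as well, and 1 had a MEB55 change of the other sign. Both comparisons share the vehicle arrays. With MEB55, SLC7A11 was 1.55 above vehicle (adjusted p = 0.0214) and GABARAPL1 1.34 above it (adjusted p = 0.0564). ABTB1 read 6.44, 5.55, 6.43 and 6.40 with MEB55, 1.14 below ST362 on average (95% interval -1.61 to -0.66, adjusted p = 0.179), and YPEL3 was 1.13 below it (-1.63 to -0.62, adjusted p = 0.231). ZNF114 was high with MEB55 on 6 h replicate 1 (8.73) and 24 h replicate 2 (8.34) and at vehicle level on the other 2 arrays (5.73 and 5.70), unlike its 4 high ST362 arrays. NDRG1 had the same arrangement, with 9.90 and 10.04 against 8.72 and 9.02, and these are the MEB55 arrays where heat shock genes were high, with medians of 0.98 and 0.88. Medians of the mitotic lists were less negative with MEB55 than with ST362, which was not tested. They were -0.59 against -0.82 for the kinesins and -0.42 against -0.67 for the mitotic kinases and checkpoint genes. For the centromere genes they were -0.30 against -0.37, and for the G2 group -0.37 against -0.55. Among lower genes the intervals of MEB55 minus ST362 ran from -0.11 to 0.64 for CENPA and from -0.25 to 0.88 for KIF20A. They ran from -0.03 to 0.89 for GTSE1, from -0.29 to 0.37 for TENT5B and from -0.57 to 0.24 for CYP24A1. Such intervals do not show that the analogues act alike. CDC25A averaged 8.06 with MEB55, near its vehicle mean of 8.09, and differed from ST362 by 0.64 (0.38 to 0.91), with an adjusted p of 0.174.

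Leaving out the time label was also set against fits that keep it. All these fits take the time labels as given, although each array of either analogue most resembled one of the other label, and whether labels were exchanged was not tested. The change of the ST362 effect from 6 h to 24 h passed the test in 0 of 22186 probes, with 549 at an unadjusted p under 0.05, and for GABARAPL1 it was -0.13 with an SE of 0.55. At 6 h alone and at 24 h alone 0 probes passed, with 1290 and 1684 under the unadjusted level. With time as a covariate 21 probes passed, 12 higher and 9 lower, all of them among the 128. Averaging the 2 times in a model with 6 groups, with 6 instead of 9 residual degrees of freedom, gave 0 calls and left 2358 probes at an unadjusted p under 0.05. With the covariate and in the 6-group average the log2 fold changes were the same as in the fit without time, so only the number of probes past the test differed. For the 40 leading genes they were 0.83 to 1.24 times as large with only the 6 h arrays and 0.76 to 1.17 times with only the 24 h arrays.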

How the data were processed

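RNA of 12 samples was measured on Illumina HumanHT-12 arrays, and groups were taken from the sample titles. The authors deposited intensity values, which are GenomeStudio bead signals per probe (version not given in the sources used here) with no background subtraction or normalization. The detection p-values, as deposited, set each probe against that array's negative controls. A series table by the authors holds intensities that equal the quantile-normalized signals within 0.364%. The methods used a model of time and treatment in Partek.

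Signals were corrected and quantile normalized with the neqc function (limma 3.58.1, R 4.3.3; normexp from detection p-values, offset 16) and put on a log2 scale. Where both replicates of any of the 6 groups had a detection p below 0.05, the probe entered a limma fit of treatment only (9 residual degrees of freedom, median residual SD 0.22), moderated by empirical Bayes, and p-values of all 22186 probes were adjusted by Benjamini-Hochberg. The number of arrays limits the precision. The 30109 probes with 1 symbol were named from the platform table, symbols being updated to RefSeq through 30070 matches by gene ID; 17196 have none and 8 have several. A gene is its brightest tested probe. The fit was tested on simulated data.

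Named genes are the 4 given for the comparison, the up to 20 strongest changes each way among genes past the test whose groups did not overlap, leaving out provisional symbols, and up to 4 per list of 29 lists with the smallest adjusted p. List members with an unadjusted p of 0.05 or more were mostly left out for length. CALCOCO1, CHMP1B, NECAP2, MT1G, YPEL1, MKI67, TACC3, CEP55, RACGAP1, EZH2, PHF19, SOX2, SLU7, CCNB1, CDK1, CDKN1A, CCNG2, CREBRF and HMOX1 were added after their values were seen. The members, lists and tests were chosen with earlier results of these data known. Alternatives covered background, offset, normalization, probe filter, variance model, weights, time, blocks, probes of a gene, the methods' cutoff and leaving out each array. Slides are not given in the sources used here, and AHSA1 and BIRC3 were not analysed here.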

Additional observations from a re-analysis of the deposited data

Results flagged for a closer look

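In groups of 4 arrays, 1 array stood apart from the other 3 in 5 of the 232 groups of named genes examined, where chance gives about 1 in 20; the value is its gap to the nearest array over the whole range of the group, read against Dixon's limit. All 5 were vehicle groups. HSD17B14 was highest on vehicle 6 h replicate 2 (0.832), EXO1 lowest on vehicle 6 h replicate 1 (0.955), TFDP1 lowest on the same array (0.842), H2AC7 lowest on vehicle 24 h replicate 1 (0.910) and ATP6V1H lowest on vehicle 24 h replicate 2 (0.845). Of these HSD17B14 passed the test with ST362. No named gene passed the test of a change of the ST362 effect with the time label, the smallest adjusted p being 0.999.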

How the results depend on the processing

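The 128 probes past the test became 85 with an offset of 50, 267 with array weights, 252 with only ST362 and vehicle arrays, 21 with time as a covariate, and 0 with all probes tested, with the average of the 2 times in a 6-group model, with only arrays labelled 6 h and with only arrays labelled 24 h; the last 2 were chosen after seeing the data. The cause was not tested. Leaving out 1 array gave 0 to 230 probes. Leaving out single arrays is detailed with the results. Other normalizations, filters, the variance trend and the methods' cutoff without moderation (113 probes, 82 higher and 31 lower; 0 after Benjamini-Hochberg) stayed within 1.5 times. The split of higher and lower calls was 61 and 102 with scaling to the 75th percentile, against 62 and 66. Of those 163 probes 109 were among the 128. Without background correction 87 passed, 71 of them among the 128, and the authors' series values gave the same counts. The 1206 genes outside the vehicle range on every array became 19 with at least 2-fold on each array, 4456 with only 6 h and 5276 with only 24 h arrays, and 1539 to 2006 without 1 array, the highest without ST362 6 h replicate 1. The 4 probes that differed between the analogues became 0 with all probes tested, in the fit of 6 groups and at either time alone, 44 with the methods' cutoff, and 0 to 4 without 1 array. The change with the time label stayed at 0 in all 14 alternatives. For the replicate block, the numbers did not pair the arrays (correlations of deviations 0.24, -0.12, -0.19 and -0.03; the vehicle array resembled its own number best in 1 of 4 cases). With time and number as a replicate block 187 probes passed, and with number as a replicate block and time as a covariate 24. No sign of a named gene reversed. For the 40 leading genes leaving out arrays could not reverse the sign, since their groups did not overlap. The signals limit low genes: without background correction log2 fold changes of the 40 leading genes shrank to 0.38 to 0.95 times and 21 of them passed.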

Other observations

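Of the lists not described above, none had a gene past the test. AP-1 and immediate early genes had a median log2 fold change of 0.31 with ST362. Of the 21, 6 lay above and 1 below the vehicle range on every array (4.83% and 4.99% of all genes). Tubulins were lower in 12 of 13 genes with a median of -0.29, and none lay outside the vehicle range on every array. Medians of the other lists were near that of all genes, -0.01: 0.09 for 23 ER chaperones and XBP1 targets, 0.03 for 20 cholesterol synthesis genes, -0.04 for 21 YAP and TGF-beta targets, 0.02 for 17 BCL2 family genes, -0.02 for 27 proteasome subunits, 0.06 for 33 complex I subunits and 0.01 for 19 genes of glycolysis with TXNIP. In these lists, 3 YAP and TGF-beta targets lay below the vehicle range on every array (4.99% of all genes). Above it lay 2 BCL2 family genes, 2 genes of the glycolysis list and 1 complex I subunit (4.83% of all genes).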
